A study of Rattus norvegicus with 6 samples.

Results

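The matrix metalloproteinases, the ADAM and ADAM-TS proteases and the tissue inhibitors of metalloproteinases (TIMPs) were examined in neurospheres, floating clusters grown from carotid body cells of adult rats. The carotid body is a small organ beside the carotid artery that senses oxygen in the blood. Members were all genes with a single-symbol probe set whose symbol started with Mmp, Adam or Timp and a digit, or with Adamts, without the Adamtsl genes. The rule gave 54 of the 14506 genes of the table, made up of 21 Mmp, 18 Adam, 11 Adamts and 4 Timp genes. The RefSeq table of the rat lists 77 genes that it counts as protein coding with such symbols, and 23 of them, among them Adam10, Adam8, Adam12, Adam19 and Mmp25, were not analysed here.

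Total RNA of 3 samples labelled undifferentiated and 3 samples labelled differentiated was hybridised to 1 Affymetrix array each. All cultures ran for 10 days in neural crest medium in ultra-low attachment plates. The undifferentiated spheres had complete medium with EGF, ET-1, FGF and IGF-1 as mitogens and normal oxygen, whereas those labelled differentiated had no mitogens and 3% oxygen. The effects of mitogens and oxygen therefore cannot be told apart, and the labels give no strain, sex or number of animals and do not name separate cultures within a group. A p-value here therefore reflects only how far these arrays spread, and that spread may be technical.

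The neurospheres are mixtures of cell types, so fewer cells of a type and less RNA per cell cannot be told apart. All 13 measured markers of glomus cells, the catecholamine-making cells of the organ, fell in the arrays labelled differentiated. That would go against the label if it meant glomus cells, but the sample titles name no cell type. Groups are therefore named by label only. Among the glomus markers Cox4i2, a subunit of the respiratory chain, fell by 3.50 and the potassium channel Kcnk3 by 2.24. Whether the labels were exchanged was not tested, and if they were, every direction given here would turn. Of 13 fibroblast and mesenchymal markers 12 rose, including the factor Prrx1 by 1.77 and the receptor Pdgfra by 1.46, and Thy1 fell by 0.77. Written as the log2 of the summed linear values, the glomus list lay between 15.10 and 15.25 in the arrays labelled undifferentiated and between 12.13 and 12.63 in those labelled differentiated. The fibroblast list lay between 14.13 and 14.52 and between 15.20 and 15.28.

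Some markers of other cell types moved as well. Over all genes, 14.7% rose and 14.9% fell at a limma adjusted p under 0.05. Of 10 smooth muscle and pericyte markers 4 rose, among them Acta2 by 0.97 and Tagln by 1.45, and Rgs5 fell by 2.28. Which cells of the spheres the Rgs5 RNA came from was not tested. Without undifferentiated replicate 2, 2 of the 10 markers rose. The summed level of the list lay between 12.66 and 12.84 in the arrays labelled undifferentiated and between 11.86 and 11.94 in the others. In the first group Rgs5 was the brightest of the list (mean 12.42, against 9.47 for Acta2) and so weighed most in that sum. The mean of the log2 values went the other way, from between 6.91 and 7.03 to between 7.12 and 7.19. Of 11 endothelial markers Erg and Eng rose by 0.96 and 0.80, and Cldn5 and Egfl7 fell by 2.31 and 0.50, with 1 lower without differentiated replicate 2. The other 7 were not called. Among these, named after their values were seen, Pecam1 (group means 3.76 and 4.15), Cdh5 (3.98 and 3.97), Kdr (3.59 and 3.66) and Emcn (3.44 and 3.50) were dim. The rest of them, Tek (5.06 and 4.97), Tie1 (5.25 and 4.90) and Esam (5.04 and 5.03), were brighter. Of 9 glial markers 3 rose and Mbp, a myelin gene, fell by 1.97. Egr2 differed by 0.61 and Foxd3 by 0.35, and neither passed in every alternative (13 and 11 of 16). Without undifferentiated replicate 2 or differentiated replicate 3 the glial markers that rose numbered 0, and without undifferentiated replicate 3 they numbered 1. The summed levels of the endothelial list (9.84 to 10.09 and 9.98 to 10.24) and the glial list (9.89 to 10.29 and 9.81 to 10.55) overlapped between the groups. Of 8 mast cell markers 0 were called by limma and 0 had an unadjusted p under 0.05, and those of smallest p, Cpa3 and Fcer1a, differed by 0.23 and 0.24. The part of all these shifts in the results on the proteases was not tested.

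Matrix metalloproteinases are zinc-dependent enzymes, secreted or anchored in the membrane, that are made as inactive precursors and cut collagens, proteoglycans and other matrix proteins. ADAM proteases sit in the membrane and release the outer parts of growth factors, receptors and adhesion proteins, and the secreted ADAM-TS enzymes cut proteoglycans and trim procollagens. TIMPs are small secreted proteins that bind and block these enzymes. The arrays measured transcripts, and neither the amounts of the proteins nor the activity of the enzymes was measured.

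A row of 10 Mmp genes lies on rat chromosome 8, and all but Mmp1b were measured. The promoters of these 9 are shown because neighbours in the row moved in different directions between the groups. Each line gives the 100 bases before the annotated transcription start, 5′ to 3′ on the plus strand, from RefSeq (GRCr8). Capitals mark the AP-1 motif TGANTCA and the TATA motif TATAAA, searched on both strands.
Mmp13, chr8:12782729-12782828: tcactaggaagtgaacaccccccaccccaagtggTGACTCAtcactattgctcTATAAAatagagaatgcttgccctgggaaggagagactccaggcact
Mmp12, chr8:12866552-12866651: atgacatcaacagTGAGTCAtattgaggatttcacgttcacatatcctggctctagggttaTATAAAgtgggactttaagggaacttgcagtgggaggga
Mmp3, chr8:12925181-12925280: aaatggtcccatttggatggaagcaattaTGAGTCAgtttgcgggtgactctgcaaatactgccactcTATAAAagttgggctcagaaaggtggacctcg
Mmp1, chr8:12943353-12943452: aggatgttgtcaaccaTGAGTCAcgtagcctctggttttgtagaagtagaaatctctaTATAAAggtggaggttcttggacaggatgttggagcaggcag
Mmp10, chr8:12974607-12974706: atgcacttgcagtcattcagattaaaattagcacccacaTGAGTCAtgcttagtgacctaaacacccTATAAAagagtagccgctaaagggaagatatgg
Mmp8, chr8:13008790-13008889: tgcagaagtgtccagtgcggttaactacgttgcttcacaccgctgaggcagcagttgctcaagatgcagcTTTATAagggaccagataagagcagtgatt
Mmp27, chr8:13030652-13030751: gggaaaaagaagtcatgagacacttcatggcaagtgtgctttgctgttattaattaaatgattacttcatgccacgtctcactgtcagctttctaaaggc
Mmp20, chr8:13074179-13074278: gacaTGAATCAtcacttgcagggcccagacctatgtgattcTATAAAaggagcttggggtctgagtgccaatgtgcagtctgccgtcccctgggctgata
Mmp7, chr8:13132943-13133042: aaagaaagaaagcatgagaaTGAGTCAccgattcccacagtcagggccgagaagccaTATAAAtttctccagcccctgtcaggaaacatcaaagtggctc

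Across all members, 18 rose and 2 fell in the arrays labelled differentiated at a limma adjusted p under 0.05, and 34 were not called. Over all genes 29.5% were called, 14.7% higher and 14.9% lower. The median difference of the members was 0.20 on the log2 scale, against 0.06 over all genes. A difference of at least 1 was reached by 11 members that rose and 0 that fell, against 3.2% and 4.8% of all genes. The arrays of the groups did not overlap in 26 members, and in 42.3% of all genes. Of these members 21 were higher and 5 lower, against 22.5% and 19.8% of all genes. The families differed in their counts: 10 of 21 Mmp genes rose and 1 fell, 5 of 11 Adamts genes rose and 1 fell, 2 of 4 Timp genes rose, and 1 of 18 Adam genes rose. No test was made of the difference between the families.

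**Figure D1:**
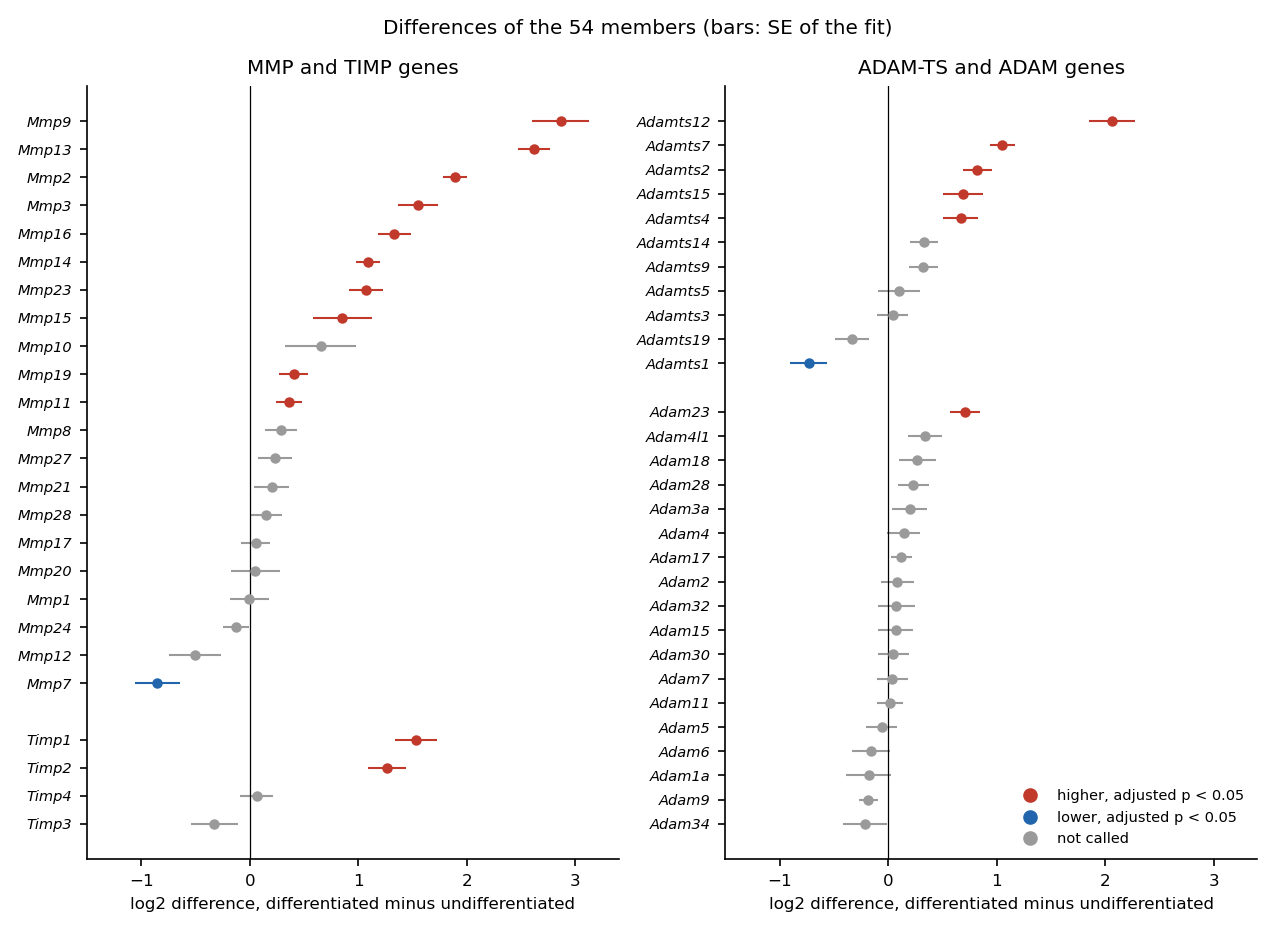
Log2 difference (arrays labelled differentiated minus arrays labelled undifferentiated) of each of the 54 members, with the SE of the fit as bars, by family. The largest rises are those of Mmp9, Mmp13, Adamts12 and Mmp2, the falls are those of Mmp7 and Adamts1, and Adam23 is the called Adam gene.

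Both gelatinases, which cut denatured collagen and basement membrane collagen, rose. Mmp9 (gelatinase B) read 9.17, 8.68 and 8.49 (log2) on the arrays labelled undifferentiated and 11.05, 12.25 and 11.64 on those labelled differentiated. The groups lay apart by more than the spread within either, and the differentiated replicate 2 was the highest. The difference was 2.87 ± 0.26 (SE, n = 3 per group), or 7.29-fold (limma adjusted p = 1.02e-05). It was 2.56 without differentiated replicate 2. Mmp2 (gelatinase A) read 10.02, 9.84 and 9.76 against 11.82, 11.65 and 11.82. Its groups were tight and did not overlap, and it rose by 1.89 ± 0.11, or 3.71-fold (limma adjusted p = 2.99e-07).

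Markers of osteoclasts, macrophage-related cells that make much Mmp9 and Ctsk in bone, moved with Mmp9. Of 4 measured osteoclast markers 3 rose (Ctsk is also in the list of cathepsins), and the log2 of their summed linear values lay between 10.00 and 10.57 in the arrays labelled undifferentiated and between 11.16 and 12.58 in those labelled differentiated. Ctsk, a collagen-cutting cathepsin, read 9.45, 9.51 and 8.85 against 10.39, 11.88 and 10.93. Acp5, an acid phosphatase, read 9.52, 9.14 and 8.99 against 9.68, 11.02 and 9.89. Differentiated replicate 2 was thus the highest array for Mmp9, Ctsk and Acp5 alike, and also for the summed macrophage markers given below. It was the highest of its group in 38.3% of all genes that rose. Acp5 rose by 0.98 (limma adjusted p = 0.0228), but did not pass without undifferentiated replicates 2 (0.0781) or 3 (0.0886), with all probe sets (0.0553) or with robust eBayes (0.0575). Its difference was 0.57 without differentiated replicate 2. Atp6v0d2, a proton pump subunit, rose by 1.44, while Calcr, the calcitonin receptor, differed by 0.32 ± 0.15 (adjusted p = 0.149) from levels below the lower quartiles of the arrays labelled undifferentiated.

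Of 17 macrophage markers 3 rose and 3 fell. Cd14 rose by 0.68 and Tyrobp by 1.24, while Cd74, of the antigen-presenting machinery, fell by 2.64 and Cybb, an oxidase subunit, by 1.27. Without differentiated replicate 2, 2 rose and 6 fell. Their summed level lay between 11.71 and 12.26 and between 11.80 and 12.59, so the ranges of the groups overlapped. The highest value, 12.59, was that of differentiated replicate 2, and replicates 1 and 3 of that group both read 11.80. A peak in that array was therefore not particular to Mmp9 and the osteoclast markers. None of 9 neutrophil markers was called by limma, although 2 had an unadjusted p under 0.05 (Elane with a difference of 0.35 and Ltf with 0.34), and their summed level lay between 6.71 and 6.83 and between 6.88 and 6.96. No marker of these lists was listed at 0. The part of these cells in the rise of Mmp9 was not tested.

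Among the collagenases, which cut fibrillar collagen, Mmp13 was the member that rose. Its arrays read 7.55, 7.43 and 7.53 in the group labelled undifferentiated and 10.48, 9.82 and 10.07 in the other. The arrays labelled undifferentiated lay within a narrow range, and every array labelled differentiated lay far above it. The difference was 2.62 ± 0.15 (SE), or 6.15-fold (limma adjusted p = 2.63e-07). Mmp8, the neutrophil collagenase, differed by 0.29 ± 0.15 (adjusted p = 0.183), and Mmp1 by -0.002 ± 0.18 (adjusted p = 0.997). All arrays of Mmp8 and Mmp1 lay below their array's lower quartile, so differences there were measured near the bottom of the scale.

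The stromelysins cut a wide range of matrix proteins and other precursor enzymes. Mmp3 rose by 1.55 ± 0.18 (SE, limma adjusted p = 7.34e-05), from 5.61 ± 0.37 (SD, n = 3) to 7.16 ± 0.23 (SD, n = 3). Mmp10 read 3.08, 2.81 and 2.92 against 4.51, 2.93 and 3.33, so a single array, differentiated replicate 1, stood above the rest. It differed by 0.65 ± 0.32 (adjusted p = 0.167), by 0.19 without that array, and by 0.98 without differentiated replicate 2 (adjusted p = 0.023). Mmp11 rose by 0.36 ± 0.12 (limma adjusted p = 0.0457), and its groups did not overlap. That call was lost when any array was left out, with an adjusted p between 0.0577 and 0.135, and held in 7 of 16 alternatives.

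Mmp7 (matrilysin), a small enzyme known mainly from epithelia, was the Mmp gene that fell. It read 4.89, 4.37 and 4.53 on the arrays labelled undifferentiated and 3.67, 3.43 and 4.14 on those labelled differentiated. The groups did not overlap, and differentiated replicate 3 came closest to the other group. The fall was 0.85 ± 0.20 (SE, limma adjusted p = 0.00824), from a dim level, with a mean at percentile 26.2 of all genes. Mmp12 (macrophage elastase) was by contrast among the brighter members, at percentile 96. It read 10.24, 9.35 and 9.33 against 9.43, 9.25 and 8.73, so the groups overlapped. Its difference of -0.50 ± 0.24 did not pass (limma adjusted p = 0.152) and shrank to -0.20 when undifferentiated replicate 1 was left out and to -0.30 when differentiated replicate 3 was.

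Membrane-type metalloproteinases act at the cell surface, and 4 of 6 rose. Mmp14, the activator of the Mmp2 precursor, read 9.80, 9.42 and 9.61 against 10.67, 10.76 and 10.67. The arrays labelled differentiated were close together and lay above all arrays of the other group. Mmp14 rose by 1.09 ± 0.11 (SE), or 2.13-fold (limma adjusted p = 2.8e-05). Mmp16, known to act on the same precursor, rose by 1.33 ± 0.15, and Mmp23 rose by 1.07 ± 0.16 (limma adjusted p of both at most 0.00038).

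Mmp15 also rose, by 0.85 ± 0.27 (limma adjusted p = 0.036), and was the called member whose groups overlapped. It read 7.22, 6.54 and 7.11 against 8.31, 7.10 and 8.01, with replicate 2 the lowest array in both groups. The call held in 9 of 16 alternatives. It was lost without undifferentiated replicate 2 (adjusted p = 0.15) or 3 (0.0622) and without differentiated replicate 1 (0.141) or 3 (0.119). Mmp17 and Mmp24 differed by 0.06 ± 0.13 and -0.13 ± 0.12 and were not called. The 95% interval was -0.24 to 0.35 for Mmp17 and -0.39 to 0.14 for Mmp24.

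Of the 5 other secreted metalloproteinases 1 rose. Mmp19 rose by 0.40 ± 0.14 (SE, limma adjusted p = 0.0441), and the call held in 8 of 16 alternatives. It was lost without undifferentiated replicate 2 (difference 0.24, adjusted p = 0.124) and without differentiated replicates 1 (0.0835), 2 (0.0505) and 3 (0.14). Mmp20, Mmp21, Mmp27 and Mmp28 differed by 0.05, 0.20, 0.23 and 0.15 and were not called.

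**Figure D2:**
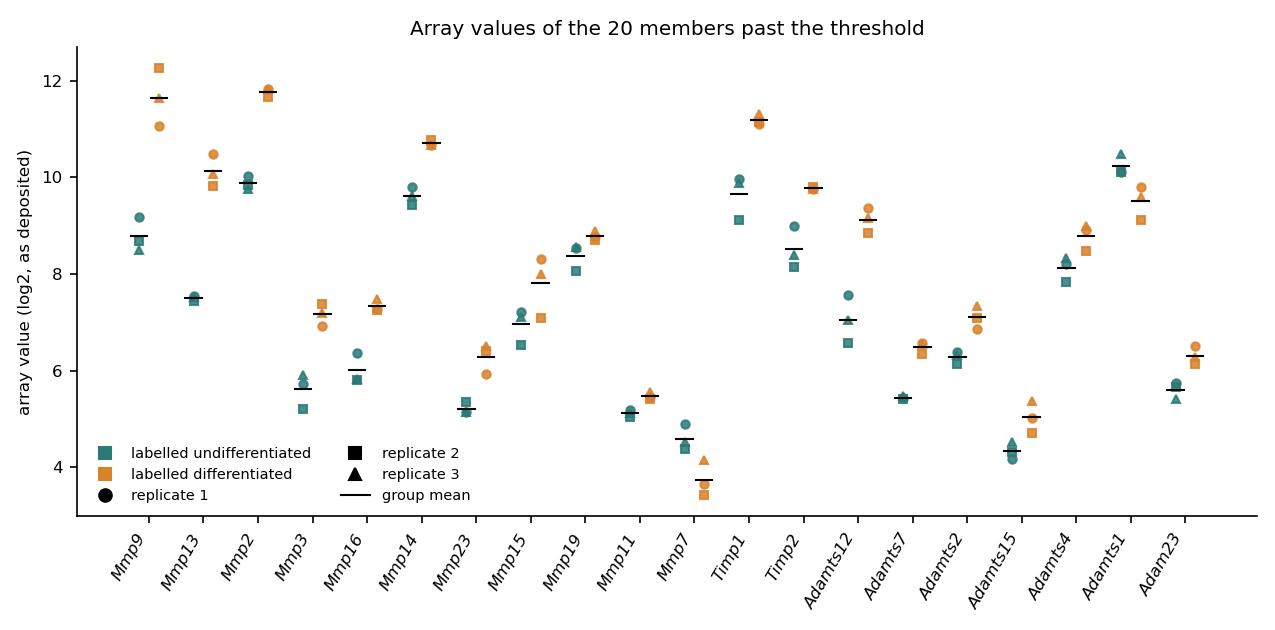
Array values (log2, as deposited) of the 20 called members, with circles, squares and triangles for replicates 1, 2 and 3, bars for group means, and colours for the labels. The groups are apart for 19 of the members, and those of Mmp15 overlap.

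Of the 4 TIMPs, 2 rose beside the enzymes that they block. Timp1 read 9.96, 9.11 and 9.88 against 11.11, 11.14 and 11.30. It rose by 1.53 ± 0.19 (SE), or 2.89-fold (limma adjusted p = 0.000113). Timp2, which blocks Mmp2 and is also needed for its activation by Mmp14, read 8.997, 8.14 and 8.38 against 9.77, 9.79 and 9.76. It rose by 1.27 ± 0.18, or 2.41-fold (limma adjusted p = 0.000251). For both genes the arrays labelled differentiated were close together, and undifferentiated replicate 2 was the lowest of all.

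Timp3, the TIMP that binds to the matrix and also blocks Adam17 and several ADAM-TS enzymes, was not called. It read 8.48, 7.94 and 8.11 against 8.31, 7.34 and 7.90, and the groups overlapped. The difference was -0.33 ± 0.22 (limma adjusted p = 0.312, 95% interval -0.80 to 0.15). It lay between -0.56 and -0.07 when single arrays were left out, the first without differentiated replicate 1 and the second without differentiated replicate 2. Timp4 read 3.60, 3.80 and 3.86 against 3.66, 3.83 and 3.97. These are dim values, and the difference of 0.06 ± 0.15 did not pass (adjusted p = 0.798).

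The ADAM-TS enzymes that bind cartilage oligomeric matrix protein both rose. Adamts12 read 7.56, 6.57 and 7.04 against 9.36, 8.85 and 9.15. In spite of the wide spread of the arrays labelled undifferentiated, the groups were far apart, and the difference was 2.06 ± 0.21 (SE), or 4.18-fold (limma adjusted p = 2.87e-05). Adamts7 read 5.43, 5.42 and 5.47 against 6.58, 6.34 and 6.54, and rose by 1.05 ± 0.12 (limma adjusted p = 4.28e-05). Comp itself, their named substrate, differed by 0.25 ± 0.12 and was not called (adjusted p = 0.167).

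The procollagen N-proteinases cut the amino-terminal propeptide from fibrillar procollagens, and 1 of 3 rose. Adamts2 read 6.38, 6.14 and 6.32 against 6.86, 7.10 and 7.34. It rose by 0.82 ± 0.14 (SE, limma adjusted p = 0.000758), and its groups did not overlap. Adamts14 differed by 0.33 ± 0.13 (adjusted p = 0.078), also without overlap. Adamts3, the member with 2 probe sets, differed by 0.04 ± 0.14 in the brighter set and by -0.52 ± 0.21 in the dimmer one (adjusted p = 0.0871), so its direction depended on the probe set.

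The proteoglycan-cleaving ADAM-TS enzymes were divided. Adamts1, also known as an inhibitor of vessel growth, read 10.10, 10.11 and 10.49 against 9.80, 9.11 and 9.60. Every array labelled differentiated was below the other group, and Adamts1 fell by 0.73 ± 0.17 (SE, limma adjusted p = 0.00718). The aggrecanase Adamts4 rose by 0.67 ± 0.16 (limma adjusted p = 0.00777), from 8.12 ± 0.26 (SD, n = 3) to 8.79 ± 0.28 (SD, n = 3). Adamts15 rose by 0.69 ± 0.18 (limma adjusted p = 0.0139), which no longer passed when undifferentiated replicate 1 (adjusted p = 0.0562) or differentiated replicate 3 (0.0558) was left out.

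The aggrecanase Adamts5 differed by 0.10 ± 0.19 (limma adjusted p = 0.757, 95% interval -0.33 to 0.53), and its sign turned when single arrays were left out. Adamts9 differed by 0.32 ± 0.13 (adjusted p = 0.101). Adamts19 had all arrays below the lower quartile and differed by -0.34 ± 0.16 (adjusted p = 0.144).

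Among the Adam genes, Adam23 rose. It encodes a nervous system protein without protease activity that binds the secreted protein Lgi1. It read 5.74, 5.66 and 5.41 against 6.51, 6.14 and 6.29, with no overlap, and rose by 0.71 ± 0.14 (SE, limma adjusted p = 0.00229). Its relative Adam11 differed by 0.02 ± 0.12 and was not called.

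None of the 4 members grouped as broadly expressed ADAM proteases was called by limma, and 0 had an unadjusted p under 0.05. Of the 4, Adam28 goes against that name here, with all 6 arrays below the lower quartile. Adam17, which releases tumour necrosis factor and ligands of the EGF receptor, read 8.45, 8.40 and 8.47 against 8.59, 8.41 and 8.68. The groups overlapped, and the difference of 0.12 ± 0.10 (limma adjusted p = 0.421) had a 95% interval of -0.10 to 0.34. Adam9 read 8.58, 8.69 and 8.70 against 8.41, 8.495 and 8.52. Its groups did not overlap, but the difference of -0.18 ± 0.09 did not pass (adjusted p = 0.175). Adam15 differed by 0.07 ± 0.16, and Adam28 by 0.23 ± 0.14.

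The 12 Adam genes known mainly from the reproductive tract, Adam1a, Adam2, Adam3a, Adam4, Adam4l1, Adam5, Adam6, Adam7, Adam18, Adam30, Adam32 and Adam34, gave 0 calls by limma, and 0 had an unadjusted p under 0.05. Their array values lay between 2.00 and 5.14 and their differences between -0.21 and 0.34. The 95% intervals reached from -0.67 to 0.68.

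The called members were mostly among the brighter ones. Of the 33 members with a mean above the 40th percentile of probe set means, 18 rose and 1 fell, against 1980 and 2079 of the 10160 genes above it, and of the 21 others Mmp7 was called. That mean is taken over both groups, so a gene can pass the cut of 4.441 through the group where it is high. Adamts15, with group means of 4.34 and 5.03, passed in that way, so these counts are not independent of the differences. In 12 members all 6 arrays lay below the lower quartile of their array, and 0 of these were called. How far such values stand over background is not known here. For the 34 uncalled members, the 95% interval lay within 1 log2 unit of 0 in 32, the exceptions being Mmp10 and Mmp12.

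**Figure D3:**
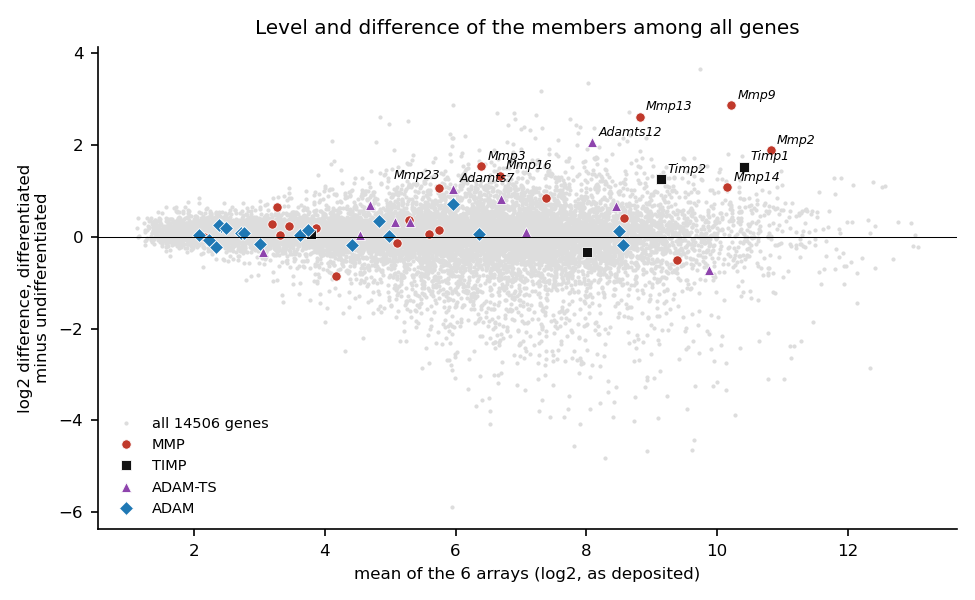
Mean of the 6 arrays (log2) on the horizontal axis and log2 difference on the vertical axis for all 14506 genes in grey and the members by family in colour. The members with a difference of at least 1 have means to the right of the dim genes, and most Adam genes lie among the dim genes near 0.

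The arrays of a group also had an order. Undifferentiated replicate 2 was the lowest of its group in 13 of the 18 members that rose, and in 62.5% of all genes that rose. Differentiated replicate 2 was the lowest of its group in 11 of those 18 members, and in 36.6% of all genes that rose. Without undifferentiated replicate 2, 15 members rose, and without differentiated replicate 2, 17 did.

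The neighbouring Mmp genes whose promoters are printed above moved in different directions. In genome order, Mmp13 rose by 2.62, Mmp12 differed by -0.50 without a call, Mmp3 rose by 1.55, and Mmp1, Mmp10, Mmp8, Mmp27 and Mmp20 were not called. Mmp7, at the far end, fell by 0.85. Mmp1b was not analysed here. Of the 10 genes in the row, 9 were measured, 2 rose and 1 fell.

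**Figure D4:**
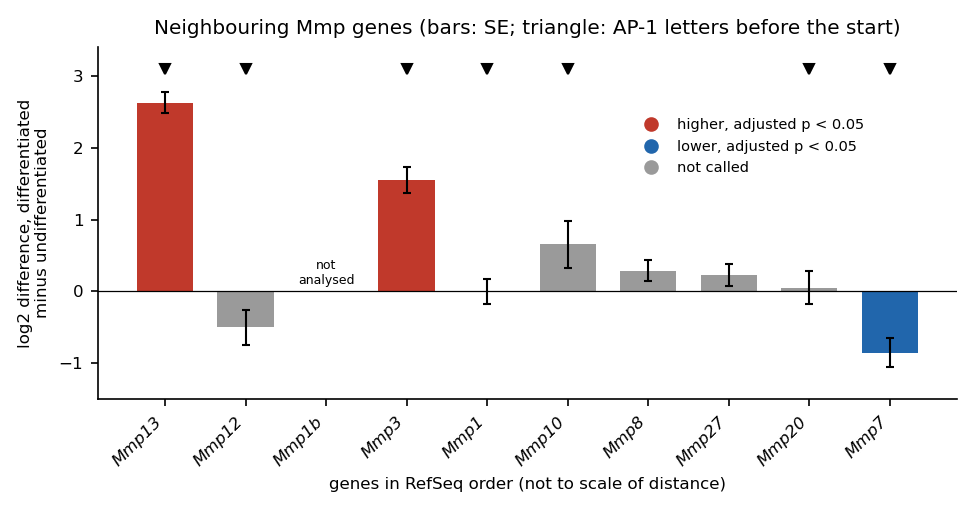
Log2 difference with its SE for the Mmp genes in their order along rat chromosome 8, not to scale of distance, with a triangle over genes that hold the AP-1 letters in the 250 bases before the start. The genes with a triangle include the tall rises of Mmp13 and Mmp3, the fall of Mmp7 and genes near 0.

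Promoters of 34 members were matched by gene ID, and the 250 bases before each start were searched. The letters TGANTCA, which the factor AP-1 (dimers of Fos and Jun proteins) binds, were found in 7 of the 9 neighbouring Mmp genes and in 0 of the 25 other members. Of all 27457 promoters in the table, 6.36% held them. In the printed promoters the motif starts 66 bases before the start site in Mmp13, 87 in Mmp12, 71 in Mmp3, 84 in Mmp1, 61 in Mmp10, 96 in Mmp20 and 80 in Mmp7. Mmp1 has another match at 242 bases. The motif was thus present in neighbours that rose, fell and were not called.

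The TATA letters TATAAA were found in 8 of the 9 neighbours and 5 of the 25 others, against 13.1% of all promoters. In Mmp8 they are on the other strand. The letters AGGAAG, a core that ETS factors bind, were found in 4 of the 9 and 7 of the 25, against 29.4% of all. These are matches of letters and not sites, and promoters of Mmp2, Mmp9 and Mmp14 were not used here.

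Genes known to act on metalloproteinase promoters were measured too. Of 17 such factors 9 rose and 1 fell, with a median difference of 0.31. All 17 lay above the 40th percentile of probe set means, where 1980 of 10160 genes rose and 2079 fell. Most genes of each list below also lay above it, so those brighter genes are the nearer background for the counts. Whether the lists differed from that background was not tested. Egr1, an immediate early factor, rose by 1.71 and Runx2, the bone and cartilage factor known to act on the Mmp13 promoter, by 0.85, while Etv5, of the ETS family, fell by 0.71. Among AP-1 subunits, named after their values were seen, Fosl1 rose by 0.41 (limma adjusted p = 0.021) and Fosl2 by 0.28 (adjusted p = 0.0393). Both calls were lost when single arrays were left out. Without undifferentiated replicate 1 the adjusted p was 0.0735 for Fosl1 and 0.0983 for Fosl2, and without undifferentiated replicate 2 it was 0.0661 and 0.0859. It was 0.0907 for Fosl2 without undifferentiated replicate 3. Without differentiated replicate 2 it was 0.0644 for Fosl1 and 0.112 for Fosl2, and without differentiated replicate 3 it was 0.0731 and 0.103. Fosl2 also lost its call with median centring (0.0916), all probe sets (0.0549), no trend (0.0811) and the replicate block (0.0545). Fos, Jun, Junb and Jund differed by 0.31, 0.22, 0.10 and -0.12 and were not called. Without undifferentiated replicate 2 the difference of Fos was 0.14, that of Jun was 0.04 and that of Junb turned to -0.04.

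The plasminogen system, whose protease plasmin activates several metalloproteinase precursors, was measured too. Of 16 measured genes 9 rose and 1 fell, with a median difference of 0.53. The list holds receptors and inhibitors beside the activators. With single arrays left out, 7 to 9 rose and 1 to 2 fell. Plg, the gene of plasmin, named after its value was seen, was dim (group means 3.76 and 3.83). It differed by 0.07 ± 0.14 (limma adjusted p = 0.747). Plat, the tissue plasminogen activator, read 12.45, 12.14 and 12.59 against 10.64, 10.54 and 10.43. The groups were far apart, and Plat fell by 1.86 ± 0.13 (SE, limma adjusted p = 1.32e-06). Plau, the urokinase activator, named after its value was seen, rose by 0.52 ± 0.14 (limma adjusted p = 0.0139), which did not pass without undifferentiated replicate 2 (0.0522). F2r, a thrombin receptor, rose by 1.57 and Tfpi2, a matrix-bound inhibitor of plasmin, by 2.57.

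Of 12 other inhibitors and surface partners 5 rose and 3 fell, with a median of 0.37. Spock1, a testican that inhibits membrane-type metalloproteinases in other systems, read 11.34, 11.38 and 11.51 against 7.53, 8.02 and 7.41. It fell by 3.76 ± 0.15 (SE), and its relative Spock2 fell by 2.50 ± 0.12 (limma adjusted p of both at most 1.06e-07). The integrin subunit Itgb3 rose by 2.16 and caveolin Cav1 by 2.15. Reck, a membrane-anchored inhibitor named after its value was seen, differed by 0.30 ± 0.11 (adjusted p = 0.0534), and the call turned on the processing: it passed with quantile normalization (0.0217), with dim genes left out (0.0407) and without differentiated replicate 1 (0.0397).

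Proprotein convertases remove the propeptides of membrane-type metalloproteinases and ADAM proteases. Of 6 genes 1 rose and 1 fell (median 0.25). Pcsk6 fell by 1.22 ± 0.13 (SE, limma adjusted p = 3.33e-05). Furin rose by 0.56 ± 0.15 (adjusted p = 0.0152), which did not pass without undifferentiated replicate 2 (0.0656) or differentiated replicates 1 (0.0622) and 3 (0.0615). Of 5 astacin-family proteases and enhancers 3 rose and 0 fell (median 0.94), among them Bmp1, which cuts the other end of procollagens, by 1.06 and its enhancer Pcolce by 0.94. Of 3 ADAM-TS-like proteins, which lack the protease domain, all rose (median 0.94), including Adamtsl4 by 1.16 and Adamtsl3 by 0.94.

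Cathepsins and their cystatin inhibitors were split, with 4 of 13 higher and 5 lower (median -0.04). The median lay between -0.10 and 0.03 when single arrays were left out. Ctsc rose by 1.04 and Ctsh by 0.83. The inhibitor Cst3 (cystatin C) fell by 0.95 and Ctsb by 0.62.

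Genes around the sheddases were partly called, in a table where 29.5% of all genes were. Of the 10160 genes above the 40th percentile of probe set means, 1980 rose and 2079 fell. Of 9 genes listed as partners of Adam10, Adam17 or other ADAM proteases, 5 rose, 1 fell and 3 were not called (median 0.40). The tetraspanin Tspan33 fell by 2.57 ± 0.14 (SE, limma adjusted p = 1.96e-07). Sh3pxd2a, a scaffold of the matrix-digesting podosomes that binds several ADAM proteases, rose by 1.06 and Rhbdf1, which escorts Adam17 to the cell surface, by 1.01. Of 31 proteins known to be shed, 14 rose, 4 fell and 13 were not called (median 0.39). The receptor Notch2 rose by 1.71 and Tnfsf11, the osteoclast differentiation factor RANKL, by 1.54, while Prnp and App fell by 1.68 and 0.88. Without undifferentiated replicate 2, 3 of the partners rose. With single arrays left out, 11 to 16 shed proteins rose.

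Matrix substrates moved mostly upward with the proteases. Of 20 measured genes 16 rose and 0 fell, with a median difference of 1.09 against 0.06 over all genes. Fibrillin Fbn1 rose by 1.55 and the proteoglycan Bgn by 1.28. Several of these genes are also fibroblast markers, so the counts of the lists are not independent. The lists were drawn up with earlier results of these data known.

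**Figure D5:**
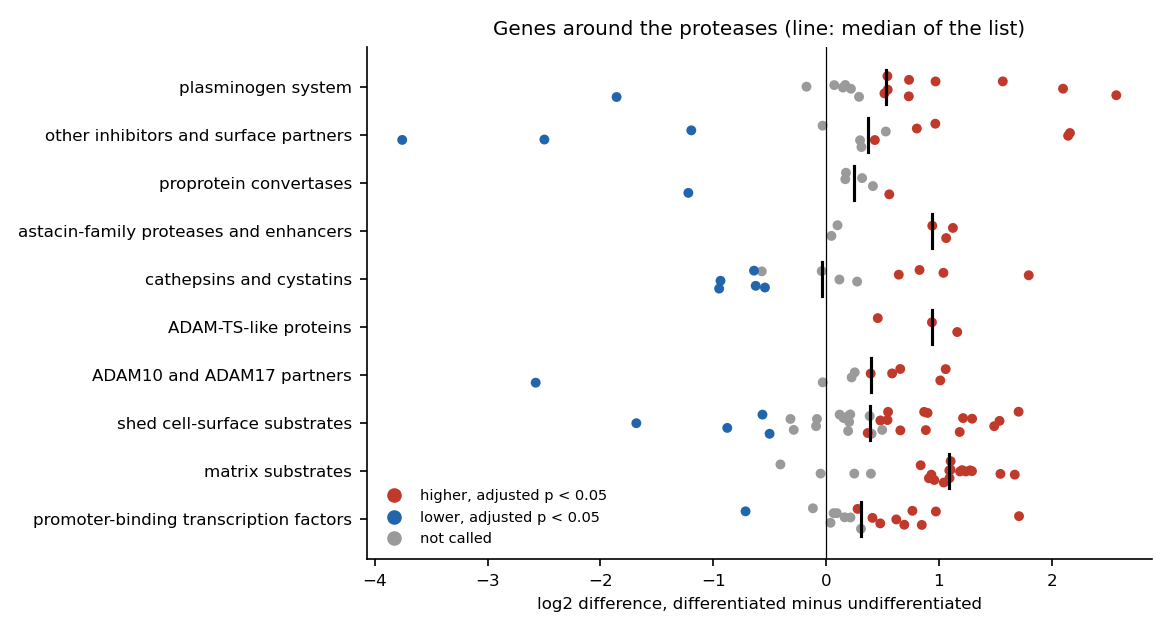
Log2 difference of each gene in the lists around the proteases, one row per list, with red for higher, blue for lower, grey for not called, and a vertical line at the median of the list. The matrix substrates sit to the right of 0, and Spock1, Tspan33, Spock2 and Plat are the points far to the left.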

How the data were processed

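For each array the authors deposited log2 values of 29214 probe sets. The log base was inferred from the range of the values. The background correction, the normalization and the software: not given in the sources used here. Per the labels' protocols, biotin-labelled cRNA was made from 100 ng of total RNA. The number of arrays limits the precision.

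The platform's probe table gave 15310 probe sets 1 symbol and 323 several, and 13581 are unnamed here. For a gene with several probe sets, the one of highest mean was used. Gene IDs of all 54 members matched the RefSeq table and changed 0 symbols. All 6 arrays were fitted with limma 3.58.1 in R 4.3.3 (lmFit, eBayes with a mean-variance trend, two-sided, Benjamini-Hochberg over 14506 genes at 0.05), without a block. The fit was also run on simulated arrays with known changes. These had independent noise and fewer changed genes than were called here, so that run tested the code and not the calls. An "alternative" is 1 of 16 other settings: quantile normalization, median centring, dim genes left out, 3 choices of probe sets, eBayes without trend or robust, array weights, the replicate block, and each array left out.

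Members and lists were chosen with earlier results of these data known. Members past the threshold were named, with array values for the 3 of smallest p per family and direction, all TIMPs, Mmp2, Mmp14 and Adam17. Of each other list, the 2 of smallest p per direction were named, and genes named after their values were seen are marked. Array values of Adam9, Mmp10, Mmp12, Mmp15, Plat, Spock1 and the osteoclast markers were also added after they were seen. Figures were drawn with matplotlib 3.10.9.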

Additional observations from a re-analysis of the deposited data

How the results depend on the processing

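Of the 20 called members, 16 kept their call and direction in every alternative that tested them, and Mmp15, Mmp19, Mmp11 and Adamts15 did not. None of the 20 turned its sign. With single arrays left out, 14 to 17 members rose, 2 fell, and 3545 to 4030 of all genes were called. With all probe sets 6018 were called. With dim genes left out 1 member fell, because Mmp7 was not tested there. With the replicate block 17 members rose and 3 fell: Mmp12 was called (-0.50, limma adjusted p = 0.0125) and Mmp11 was not (adjusted p = 0.0684). The labels do not say that the numbers pair arrays. Deviations from the group means correlated at 0.115, 0.124 and -0.004 within numbers 1, 2 and 3. Between unlike numbers they lay between -0.15 and 0.062, the highest for undifferentiated replicate 3 with differentiated replicate 1. Numbers 1 and 2 thus correlated best with their own number, and number 3 did not. Whether the arrays were paired cannot be told from these values, and the main fit had no block.

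Signs turned in 14 uncalled members, and the cause was not tested. With quantile normalization the differences were -0.0033 for Adam11, -0.019 for Adam2, -0.021 for Adam30, -0.028 for Adam32, -0.091 for Adam7, -0.013 for Mmp20 and -0.000293 for Timp4. Adam11 was at -0.013 with median centring and Mmp1 at 0.036 with array weights. Adamts3 was at -0.236 with the mean of its probe sets and at -0.515 with the more variable one. With single arrays left out, the ranges were -0.017 to 0.033 for Adam11, -0.057 to 0.223 for Adam15, -0.00806 to 0.196 for Adam2, -0.00914 to 0.12 for Adam30 and -0.025 to 0.224 for Adam32. They were -0.402 to 0.015 for Adam34, -0.11 to 0.021 for Adam5, -0.026 to 0.097 for Adam7, -0.035 to 0.134 for Adamts3 and -0.103 to 0.298 for Adamts5. They were -0.107 to 0.14 for Mmp1, -0.051 to 0.142 for Mmp17, -0.094 to 0.322 for Mmp20 and -0.012 to 0.146 for Timp4. How far dim members stand over background is unknown, which limits their differences.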
